A study of Mus musculus with 90 samples.

Results

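Mitf, Pmel, Mlana, Tyr, Tyrp1, Dct, Sox10, Sox9, Ngfr and Axl are genes of the melanocyte lineage and the neural crest, and their levels were compared across cultures of the mouse melanoma line YUMM2.1, with the mouse colorectal carcinoma line CT26 as a line outside the lineage. They were the 10 rows, of 53697 gene identifiers in the count table, whose Ensembl identifier mapped to these symbols. Each line gave 15 groups of 3 samples (90 samples in all), sequenced by a digital method that counts each transcript near its 3′ end, so that levels are compared between samples and not between genes. Control cells received bovine serum albumin (0 IU/mL IFNγ) and were harvested at 0, 1, 2 and 3 weeks. Chronic cells had 1, 2 or 3 weeks in IFNγ at 50 IU/mL and were harvested without rechallenge, or 2 h or 24 h after fresh IFNγ. Naive cells were harvested 2 h or 24 h after a first exposure to IFNγ at week 0. No control culture was harvested 2 h or 24 h after a change of medium without IFNγ, so that the handling at rechallenge and IFNγ itself cannot be told apart. The labels give no genotype for either line, and the samples are triplicates, which the study describes in general as independent biological replicates, so the p-values measure the spread between such cultures of 1 line.

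Pigment cells arise from the neural crest, where the transcription factor Sox10 switches on Mitf, the regulator of the melanocyte programme. Mitf binds the M-box, an extended E-box in the promoters of the pigment enzymes Tyr (tyrosinase), Tyrp1 and Dct, and also acts on Pmel, the melanosome fibril protein, and Mlana, a melanosome protein recognised by T cells as an antigen. Melanoma cells can lose this pigment programme and instead show neural crest or mesenchymal features: the neurotrophin receptor Ngfr marks neural crest-like cells, the receptor tyrosine kinase Axl marks cells with low Mitf, and Sox9, a relative of Sox10, is often inversely related to it.

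The promoters of the pigment enzymes are shown first because they share the M-box, which the windows of the expressed members Ngfr and Axl lack. Each sequence is the RefSeq window of 250 bases before the transcription start in GRCm38.p6, printed 5′ to 3′ on the strand of the gene with the M-box letters TCATGTG, or their reverse complement, in capitals. The windows lie at chr7:87493513-87493762 on the minus strand (Tyr), chr4:80833963-80834212 on the plus strand (Tyrp1) and chr14:118052247-118052496 on the minus strand (Dct).
Tyr: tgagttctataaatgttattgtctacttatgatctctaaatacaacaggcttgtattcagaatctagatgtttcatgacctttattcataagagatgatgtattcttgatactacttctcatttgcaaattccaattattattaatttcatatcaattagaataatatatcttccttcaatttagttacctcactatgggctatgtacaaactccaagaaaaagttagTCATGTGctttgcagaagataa
Tyrp1: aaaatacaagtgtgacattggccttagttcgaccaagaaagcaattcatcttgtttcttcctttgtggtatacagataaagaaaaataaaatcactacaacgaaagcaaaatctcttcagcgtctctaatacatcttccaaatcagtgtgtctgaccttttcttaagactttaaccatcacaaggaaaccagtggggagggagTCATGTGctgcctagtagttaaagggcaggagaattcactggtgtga
Dct: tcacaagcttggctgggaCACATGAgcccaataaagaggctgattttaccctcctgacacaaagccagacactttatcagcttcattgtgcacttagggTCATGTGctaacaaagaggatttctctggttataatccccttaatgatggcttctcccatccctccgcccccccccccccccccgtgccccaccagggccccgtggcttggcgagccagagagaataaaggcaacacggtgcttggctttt
The promoter of Axl, at chr7:25788734-25788983 on the minus strand, is shown for contrast, as the member nearest to a call after rechallenge among the 3 that were tested, and it holds no capitals because it holds no M-box.
Axl: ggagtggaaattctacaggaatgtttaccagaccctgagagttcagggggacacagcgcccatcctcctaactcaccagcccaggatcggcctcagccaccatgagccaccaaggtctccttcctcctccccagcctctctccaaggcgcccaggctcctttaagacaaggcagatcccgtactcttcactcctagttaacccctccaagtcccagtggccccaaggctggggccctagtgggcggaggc

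Counted from the transcription start, the M-box began at position -22 in Tyr and -47 in Tyrp1. In Dct it began at -151, with another copy on the reverse strand at -232. Promoter windows were given for 6 of the 10 members, in 8 windows (Mitf has several starts), and were searched on both strands from 250 bases before to 50 bases after the start. Sox10, Sox9, Pmel and Mlana had no window. The M-box was in the windows of 3 members, Tyr, Tyrp1 and Dct, against 3.77% of 32851 promoters, and not in those of Mitf, Ngfr and Axl. The shorter E-box CANNTG, which every M-box contains, was in the windows of 5 members and in 72.3% of all promoters. The SOX motif ACAAAG was found for Dct and Tyrp1 and in 18.7% of all promoters. The core of the interferon-stimulated response element was in 0 of the 8 member windows, against 3.44% of all promoters. These matches describe letters in a window, not binding.

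The 3 genes with an M-box were among those hardly detected in YUMM2.1. The totals of the libraries spanned 274719 to 3161276 counts for YUMM2.1, and for CT26 they spanned 295157 to 2205285. Of these, 3 libraries held less than 25% of the median total of their line (YUMM2.1 at 3 weeks of IFNγ without rechallenge, replicate 3, and CT26 at 1 and at 3 weeks of IFNγ without rechallenge, replicate 3). Levels are given as CPM, the count per 1000000 counts of the library after scaling by TMM factors over all 90 samples. A gene was tested only when it passed the edgeR filter on low counts, which 3 of the 10 members did in YUMM2.1 (Sox10, Ngfr and Axl) and 1 in CT26 (Axl). IFNγ acted on the cells: over weeks 1 to 3, Irf1 rose by 1.68, Cd274 by 2.74 and B2m by 1.48 on the log2 scale in chronic YUMM2.1 cells, with edgeR adjusted p-values of 0.00172 or lower.

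Tyrp1 (chr4:80834123-80851719, plus strand) had 0 counts in all 45 YUMM2.1 samples, which allows at most 0.0429 CPM over the line, and 1 count in CT26. Mlana (chr19:29697824-29708634, plus strand) had 1 count in YUMM2.1 and 0 in CT26. Tyr (chr7:87424771-87493512, minus strand) had 15 counts in YUMM2.1, spread over 11 samples, and 21 in CT26. None of these 3 genes exceeded 3 counts in any sample of either line. In RNA from a whole culture, fewer expressing cells and less RNA per cell cannot be told apart.

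Pmel (chr10:128704195-128720238, plus strand) had 19 counts in 15 YUMM2.1 samples and 2 counts in CT26. Its exons overlap those of Cdk2 and Dgka on the opposite strand, and whether counting used the strand is not given in the sources used here, so that these few counts may include reads of its neighbours. The 12 control samples differed by 0.155 CPM between the lines (two-sided permutation test, p = 0.472).

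Dct (chr14:118012790-118052244, minus strand), Mitf (chr6:97807052-98021349, plus strand) and Sox9 (chr11:112782224-112787760, plus strand) were detected at a few counts per sample in both lines. Dct had 56 counts in YUMM2.1 (at most 6 in a sample) and 127 in CT26. Mitf had 144 counts in YUMM2.1 (at most 10) and 147 in CT26, and Sox9 had 53 and 92. By total count, none of the 3 was higher in the melanoma line.

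In the 12 control samples of YUMM2.1, Mitf ranged from 0 to 3.38 CPM with a median of 1.15, against 0 to 4.82 with a median of 2.19 in CT26. The ranges overlapped, and the YUMM2.1 mean was lower (1.22 ± 1.05 against 2.45 ± 1.54, SD, n = 12 each). In the permutation test, p was 0.0332 before and 0.166 after correction for the 5 genes tested this way. The test treated the controls of all weeks as alike. Dct averaged 1.21 ± 1.31 CPM in YUMM2.1 controls and 2.46 ± 2.01 in CT26 controls (permutation test, p = 0.0869 before and 0.217 after correction). Sox9 averaged 0.744 ± 0.891 and 1.41 ± 1.48 (permutation test, p = 0.196 before and 0.327 after correction). Tyr averaged 0.192 ± 0.465 and 0.316 ± 0.473 (permutation test, p = 0.512 before and after). With no filter on low counts, so that these genes entered the edgeR fit, Dct was lower in YUMM2.1 by 1.38 on the log2 scale (log2 fold change -1.38, SE 0.496, adjusted p = 0.0209), whereas the adjusted p was 0.0600 for Mitf and 0.226 for Sox9.

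**Figure D1:**
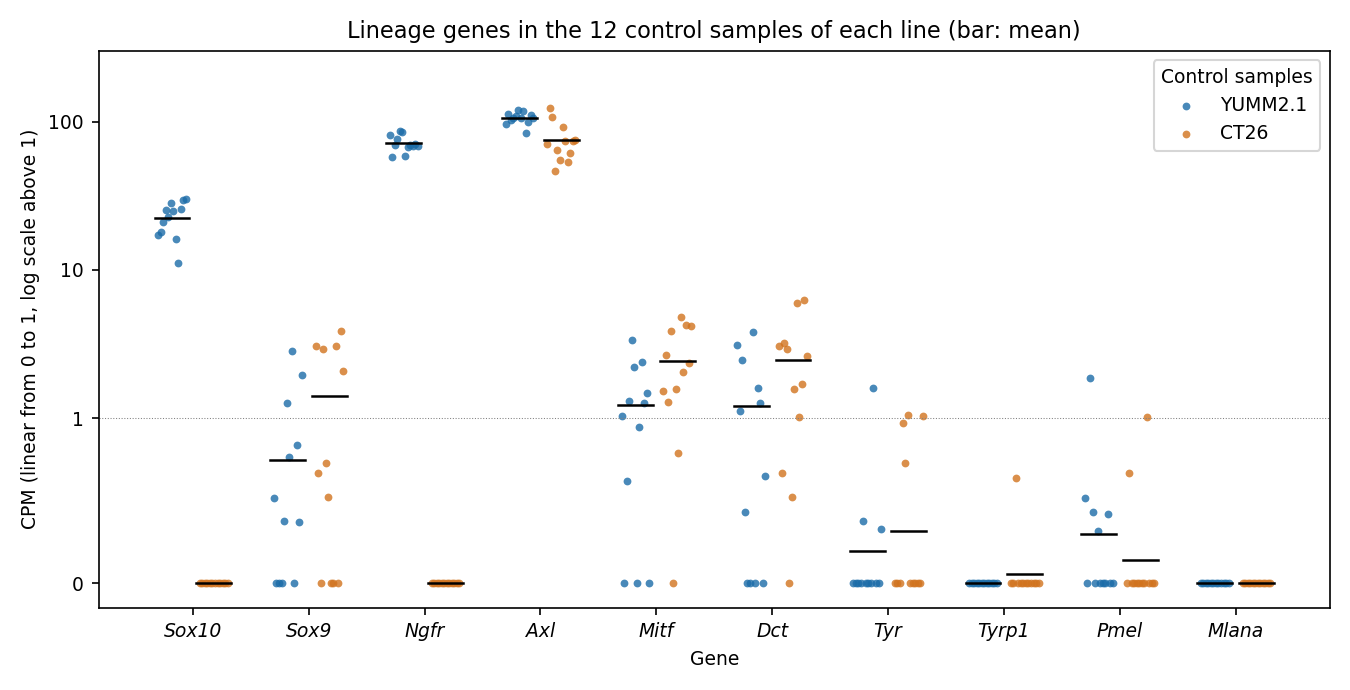
CPM (linear from 0 to 1, logarithmic above 1) of the 10 genes in the 12 control samples of YUMM2.1 and of CT26; points are samples and bars are means. Sox10 and Ngfr stand at 11.2 CPM or more in every YUMM2.1 sample and at 0 in every CT26 sample, Axl is present in both lines, and Tyr, Tyrp1, Pmel and Mlana are at 1.86 CPM or lower in both.

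Sox10, Ngfr and Axl were the members that YUMM2.1 cells expressed in every sample. Sox10 (chr15:79154908-79165240, minus strand) had 2007 counts over the 45 YUMM2.1 samples and ranged from 11.2 to 47.9 CPM with a median of 25.6. CT26 had 0 counts of Sox10 in 45 samples, which allows at most 0.0531 CPM. In control samples, Sox10 lay between 11.2 and 30 CPM in YUMM2.1. Its level pooled over the 12 controls was 24.6 CPM without TMM scaling. This was at least 148-fold higher than the limit that 3 counts over the CT26 controls allow. No p-value is given for this difference, since Sox10 passed the filter only through YUMM2.1.

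Ngfr (chr11:95568818-95587735, minus strand) had 5601 counts and ranged from 45 to 125 CPM in YUMM2.1, with a median of 72.5. It too had 0 counts in CT26. In the controls it lay between 57.4 and 86.1 CPM, and its pooled level was at least 451-fold higher than the CT26 limit. For the same reason as for Sox10, no p-value is given. The lines did not overlap for Sox10 or for Ngfr in any sample.

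Axl (chr7:25757273-25788705, minus strand) was expressed in both lines, at 49.8 to 243 CPM over the YUMM2.1 samples and 46.7 to 192 CPM over the CT26 samples. In the controls, the lowest, median and highest values were 84.3, 105 and 120 CPM in YUMM2.1 and 46.7, 71.8 and 124 CPM in CT26. The ranges overlapped, and Axl was 1.44-fold higher in YUMM2.1 (log2 fold change 0.53, SE 0.139, edgeR adjusted p = 0.000618). The median gene was 0.20 higher in YUMM2.1 on the same scale, and relative to it the difference in Axl was 0.32. All 3 members tested were higher in YUMM2.1, where 41.2% of the 10339 genes tested were higher and 69.0% differed in either direction. Since Sox10 and Ngfr passed the filter only through YUMM2.1, their direction was fixed by it, and the count of 3 is a description.

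Further genes of the lineage were counted in lists. Over all 10339 genes tested between the untreated lines, 41.2% were higher in YUMM2.1. List genes with few or 0 counts in CT26, such as Foxd3, Sox6, Erbb3, Mlph, Sort1, Pros1 and Tnc, passed the filter only through YUMM2.1. Their direction was fixed by the filter, so the list counts here and below are a description. Among 16 other pigment and melanosome genes, Slc45a2 and Gpr143, a transporter and a receptor of the melanosome, had 0 counts in YUMM2.1, and Oca2 and Trpm1 had 2 counts each. Of the 8 that were tested between the untreated lines, 7 were higher and 1, Mc1r, was lower in YUMM2.1. Several of those higher act in lysosomes or vesicle transport in many cells, such as Cd63 (4750 ± 210 CPM against 1480 ± 150, SD, n = 12 controls each) and the melanosome and lysosome protein Gpnmb (88.3 ± 33.2 against 32.9 ± 13.2). Also higher were Mlph, the melanophilin that links melanosomes to myosin (6.49 ± 3.49 against 0.378 ± 0.674), and Slc24a5 (7.09 ± 2.05 against 1.59 ± 1.39). The exons of Slc24a5 overlap those of Myef2 on the opposite strand, so its level is uncertain. Mc1r, the melanocortin receptor, stood at 20.4 ± 5.79 CPM in YUMM2.1 and 27.8 ± 5.54 in CT26, but its exons overlap those of Gm38092 on the opposite strand, and its level is uncertain. These genes, other than the 10 members, S100b and the interferon genes, were chosen for naming after their values were seen.

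Of 21 neural crest regulators, 14 were tested, of which 10 were higher and 4 lower in YUMM2.1. Erbb3, the neuregulin receptor of the crest and of Schwann cells and a target of Sox10, stood at 20.8 ± 5.81 CPM against 0.166 ± 0.398. Pax3, which acts with Sox10 on Mitf, stood at 17.0 ± 3.16 against 1.46 ± 1.00 CPM, and Sox6 at 15.9 ± 3.55 against 0.262 ± 0.524. Foxd3, a crest factor that restrains the melanocyte fate, was at 4.82 ± 2.20 CPM in YUMM2.1 and had 0 counts in CT26, and Nes (nestin) was at 92.3 ± 8.94 against 6.81 ± 2.76 CPM. The genes lower in YUMM2.1 were Lef1, Twist1, Snai2 and Zeb1, the last 3 of which are factors of epithelial to mesenchymal transition, whereas Zeb2, another such factor, was higher (27.4 ± 4.28 against 6.81 ± 2.56 CPM). Kit and Ednrb, the receptors that melanoblasts need, had 0 counts in YUMM2.1.

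Among 12 ligands, co-receptors and relatives of Ngfr and Axl, 6 were tested, 4 higher and 2 lower in YUMM2.1. Sort1 (sortilin), a co-receptor of Ngfr for pro-neurotrophins, was at 7.48 ± 3.41 CPM against 0.087 ± 0.203. The ligand Bdnf was lower (6.81 ± 2.67 against 20.3 ± 7.59). Mertk, a relative of Axl, was at 7.07 ± 2.79 against 0.386 ± 0.590 CPM, and Pros1, a ligand of this receptor family, at 4.27 ± 1.91 against 0.207 ± 0.383. Gas6, the ligand of Axl, had 0 counts in both lines. Of 12 genes linked to dedifferentiated melanoma, 9 were tested, 5 higher and 3 lower, among them tenascin C (Tnc) at 6.52 ± 1.95 against 0.0436 ± 0.151 CPM and fibronectin (Fn1) at 128 ± 29.2 against 907 ± 86.9 CPM.

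Markers of other cells were measured beside these lists. Of 9 Schwann cell and fibroblast markers, 3 were tested and all 3 were higher in YUMM2.1. Among them were the glial and melanoma marker S100b (90 ± 16.4 CPM against 1.31 ± 0.760) and the collagen Col3a1 (65.6 ± 11.6 against 7.78 ± 4.02). The fibroblast markers Pdgfra, Col1a1, Thy1 and Dcn, in contrast, had a median count under 1 over all 45 YUMM2.1 samples. The summed level of 10 colon epithelium markers was 0 to 3.32 CPM in YUMM2.1 controls and 63.2 to 82.7 CPM in CT26 controls. In CT26 it came mostly from Krt20 (56.7 ± 6.53 CPM) and Krt18 (17.9 ± 4.8 CPM), and the epithelial genes Epcam, Krt19, Cdx1, Vil1 and Cdh1 had 0 counts there, so that the colon label of CT26 rests on few markers in these data. The summed level of 6 leukocyte markers was at most 3.15 CPM in the controls of either line. The label of YUMM2.1 as melanoma was thus met by Sox10, Ngfr and S100b but not by Tyr, Tyrp1, Mlana or Mitf.

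**Figure D2:**
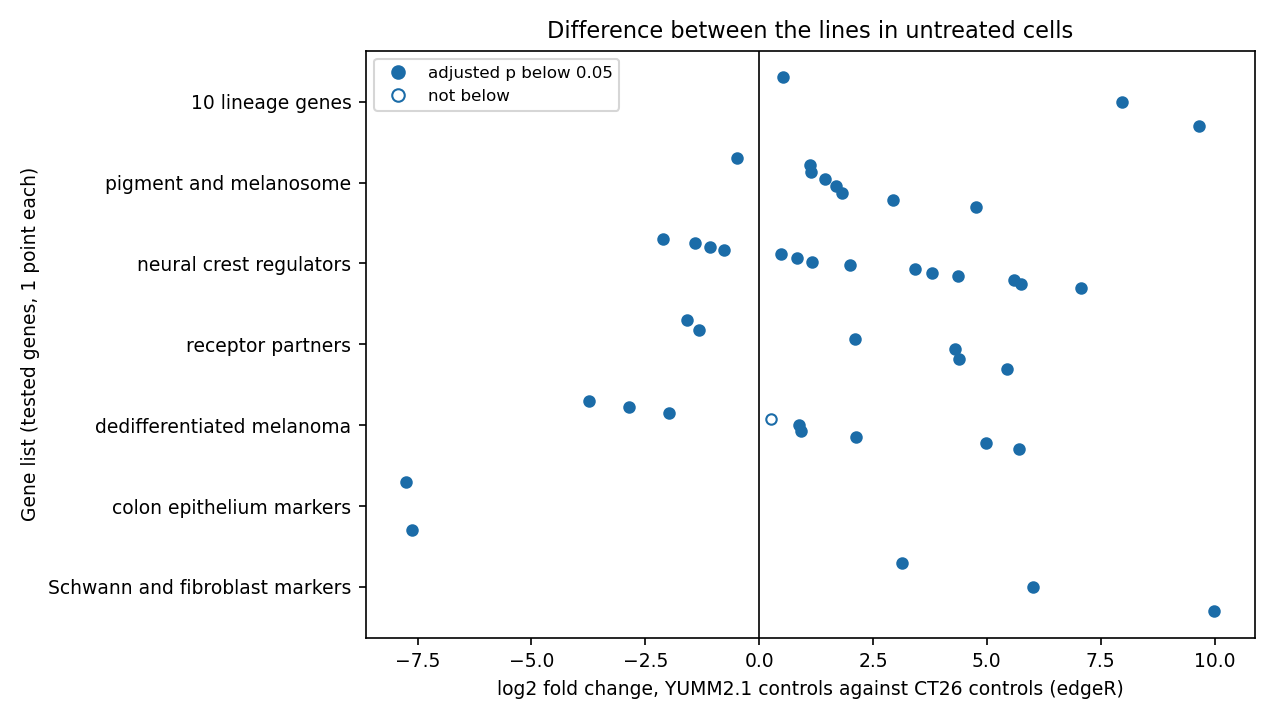
log2 fold change between YUMM2.1 and CT26 control samples (horizontal axis, n = 12 each) for each tested gene of 7 lists (rows); filled points passed the edgeR test. The 3 tested lineage genes lie to the right of 0, the 14 neural crest regulators split into 10 higher and 4 lower, and both colon markers lie far to the left. Points for genes with 0 counts in the controls of a line (Sox10, Ngfr, Foxd3, Krt18) depend on the prior count of the fit and are not sizes of effect. Genes with few or 0 counts in a line passed the filter only through the other line, which fixed their side of the axis.

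Chronic IFNγ did not move any tested member past the threshold. Averaged over weeks 1 to 3 against age-matched controls, 0 of the 3 members tested passed (edgeR, 0 at an unadjusted p under 0.05 and 0 by DESeq2), where 2.95% of the 9589 genes tested did. The 7 members below the filter could not be tested in this fit, and with no filter none of those that could be fitted passed in a comparison within YUMM2.1. The comparisons below share samples, since the chronic cells without rechallenge serve as the reference for rechallenge and the week 0 controls for several comparisons.

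Sox10 had the highest estimate of the 3. At week 1, its control samples were at 25.5, 22.6 and 28.3 CPM and the chronic samples at 23.7, 29.2 and 36.8 CPM. At week 2 the controls were at 25.1, 16.2 and 11.2 CPM and the chronic samples at 28.9, 35.1 and 23.8 CPM. At week 3 the controls were at 25.6, 29.5 and 30 CPM and the chronic samples at 23.7, 47.9 and 17.6 CPM. The groups overlapped at each week, and 6 of the 9 chronic samples lay above the mean of their controls. The mean log2 fold change was 0.36 (SE 0.182, 95% confidence interval -0.005 to 0.729, edgeR adjusted p = 0.391). At week 2 alone it was 0.69 (interval 0.021 to 1.365, adjusted p = 0.670), with 1 member at an unadjusted p under 0.05. By week, 0 of 3 members passed by edgeR or DESeq2 at weeks 1, 2 and 3, where 0.73%, 1.12% and 0.97% of all genes passed. Leaving out the chronic sample of 47.9 CPM lowered the mean to 0.19. The week 2 value was 0.44 without control replicate 3 and 1.05 without control replicate 1.

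Ngfr and Axl were closer to their controls. For Ngfr, the control means were 82.3 ± 5.68, 65.3 ± 5.87 and 69.2 ± 0.798 CPM at weeks 1, 2 and 3, and the chronic means 86.9 ± 7.58, 70.6 ± 2.82 and 70.4 ± 17.4 CPM (SD, n = 3 each). Its log2 fold change over the 3 weeks was 0.11 (interval -0.135 to 0.359, edgeR adjusted p = 0.785), with 7 of 9 chronic samples above the control mean. For Axl, the control means were 111 ± 7.84, 103 ± 17.0 and 105 ± 5.31 CPM and the chronic means 127 ± 22, 98.4 ± 2.46 and 102 ± 45 CPM. Its log2 fold change was also 0.11 (interval -0.148 to 0.366, adjusted p = 0.804), with 4 of 9 chronic samples above the control mean. These intervals leave room for a rise of up to 0.36 in Ngfr and 0.37 in Axl on the log2 scale. The response at week 3 did not pass against that at week 1 for any member (edgeR 0 of 3, DESeq2 0, and 0 at an unadjusted p under 0.05, where 0% of all genes passed), with differences of 0.02 for Sox10, 0.07 for Ngfr and -0.12 for Axl.

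**Figure D3:**
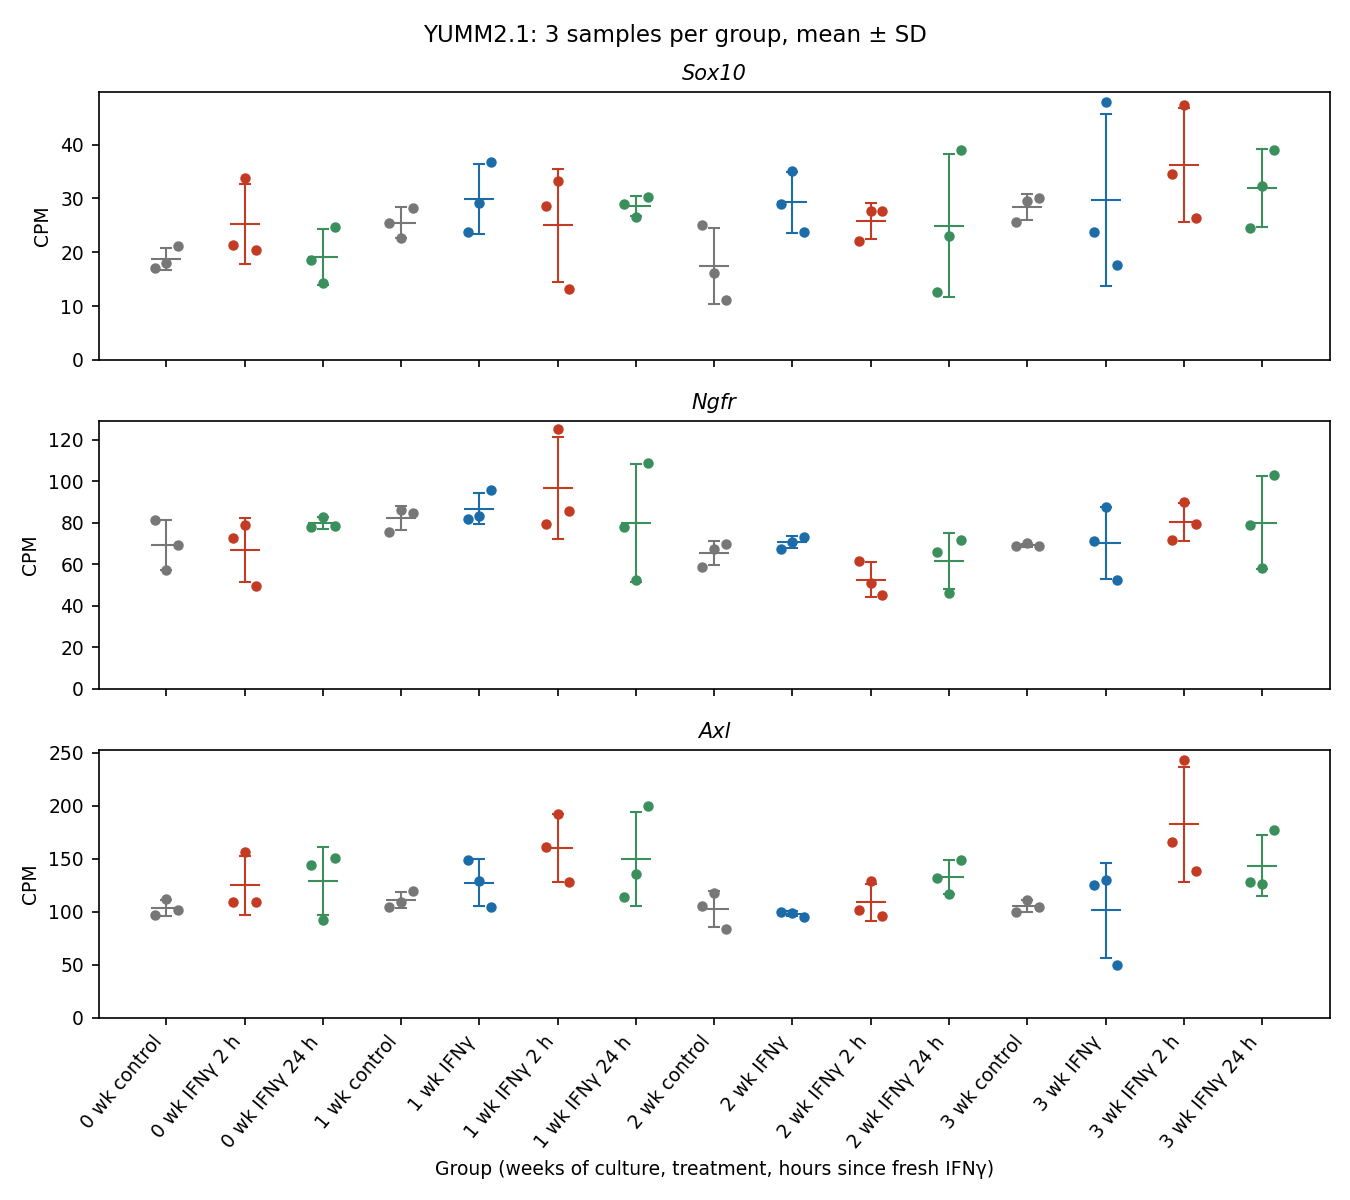
CPM of Sox10, Ngfr and Axl (vertical axes) in the 15 groups of YUMM2.1; points are the 3 samples of a group and bars the mean ± SD. Group means run from 17.5 to 36.1 CPM for Sox10, from 52.6 to 96.7 CPM for Ngfr and from 98.4 to 183 CPM for Axl, and groups next to each other in the order of their means overlap.

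The 15 groups of YUMM2.1 were ranked by mean level. Sox10 was highest 2 h after rechallenge at week 3 (36.1 ± 10.6 CPM) and lowest in the week 2 controls (17.5 ± 7.06). Ngfr was highest 2 h after rechallenge at week 1 (96.7 ± 24.5 CPM) and lowest 2 h after rechallenge at week 2 (52.6 ± 8.47). Axl was highest 2 h after rechallenge at week 3 (183 ± 53.9 CPM) and lowest in the chronic cells of week 2 (98.4 ± 2.46). For each gene, all 14 gaps between neighbours in the order were smaller than the larger SD of the pair, and no pair of neighbours was free of overlap. This describes neighbours in the order only, and some groups farther apart did not overlap, as given below. The ratio of the highest to the lowest group mean was 2.06 for Sox10, 1.84 for Ngfr and 1.86 for Axl.

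A first exposure to IFNγ gave no call either. At 2 h, 0 of 3 members passed (edgeR, 0 at an unadjusted p under 0.05 and 0 by DESeq2), where 0.24% of all genes did, and at 24 h again 0 of 3 (0 and 0), where 0.886% did. The naive controls had Axl at 96.9, 112 and 102 CPM, against 109, 157 and 109 CPM after 2 h and 144, 92.5 and 151 CPM after 24 h. Both treated groups overlapped the controls, with log2 fold changes of 0.28 (interval -0.163 to 0.721) and 0.38 (interval -0.066 to 0.826, edgeR adjusted p = 0.796 at 24 h). Sox10 moved from 18.7 ± 2.1 CPM to 25.2 ± 7.44 at 2 h and 19.1 ± 5.27 at 24 h, and Ngfr from 69.4 ± 12 to 66.9 ± 15.6 and 80.0 ± 2.66 CPM, all within overlapping ranges.

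Axl stood closest to a call after rechallenge of chronic cells. At week 1 its level was 149, 129 and 105 CPM without rechallenge, 161, 192 and 128 CPM after 2 h, and 114, 136 and 200 CPM after 24 h. At week 2 the values were 100, 99.4 and 95.6 CPM, then 102, 129 and 96.1 CPM, then 132, 117 and 149 CPM. At week 3 they were 125, 130 and 49.8 CPM, then 166, 243 and 139 CPM, then 128, 126 and 177 CPM. Of the 9 samples taken at 2 h, 8 lay above the mean of the unrechallenged samples of their week, as did 8 of the 9 taken at 24 h. The groups were free of overlap at week 3 for 2 h and at week 2 for 24 h, and overlapped at the other weeks. How often groups of 3 were free of overlap over all genes was not counted, so this is a description.

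Averaged over the 3 weeks, the log2 fold change of Axl was 0.41 at 2 h (1.33-fold, SE 0.127, interval 0.153 to 0.666, unadjusted p = 0.00241) and did not pass over all genes (edgeR adjusted p = 0.0702). Thus 0 of 3 members passed in edgeR, with 1 at an unadjusted p under 0.05 and 1, Axl, by DESeq2 (adjusted p = 0.0362), where 2.82% of all genes passed in edgeR. At week 3 alone the change was 0.74 (adjusted p = 0.0993). It passed with DESeq2 (0.81, adjusted p = 0.0458), with no filter (0.77, adjusted p = 0.00115) and without replicate 3 of the 2 h samples (0.92, adjusted p = 0.0328). Of this change, the shallow library with 17 counts of Axl was a part: without it the value at week 3 was 0.57, and the mean over the weeks 0.35. Without the 2 h sample of 243 CPM these were 0.44 and 0.31. At 24 h the mean was 0.36 (interval 0.10 to 0.615, edgeR adjusted p = 0.302, 0 of 3 members by edgeR and DESeq2, 1 at an unadjusted p under 0.05), where 1.06% of all genes passed. For comparison, Irf1 rose by 2.47 at 2 h. The response of chronic cells to rechallenge did not pass against that of naive cells for any member at 2 h (edgeR 0 of 3, where 0.146% passed) or at 24 h (edgeR 0 of 3, where 0.521% passed), with 0 by DESeq2 and 0 at an unadjusted p under 0.05 in each, and the difference in Axl was 0.13 (interval -0.381 to 0.642) and -0.02 (interval -0.537 to 0.491).

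Sox10 and Ngfr stayed near 0 change at rechallenge when the weeks were averaged. At 2 h, Sox10 changed by -0.01 (interval -0.372 to 0.358) and Ngfr by -0.01 (interval -0.260 to 0.240), and at 24 h by 0.01 (interval -0.354 to 0.365) and -0.03 (interval -0.286 to 0.220). Ngfr differed in sign between weeks at 2 h. At week 2 it stood at 61.7, 51.0 and 45 CPM after 2 h, all below the 67.6, 71.0 and 73.2 CPM without rechallenge, with a log2 fold change of -0.395 that did not pass (edgeR adjusted p = 0.938). At week 3 it stood at 71.7, 90.2 and 79.3 CPM against 71.2, 87.4 and 52.7 CPM.

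**Figure D4:**
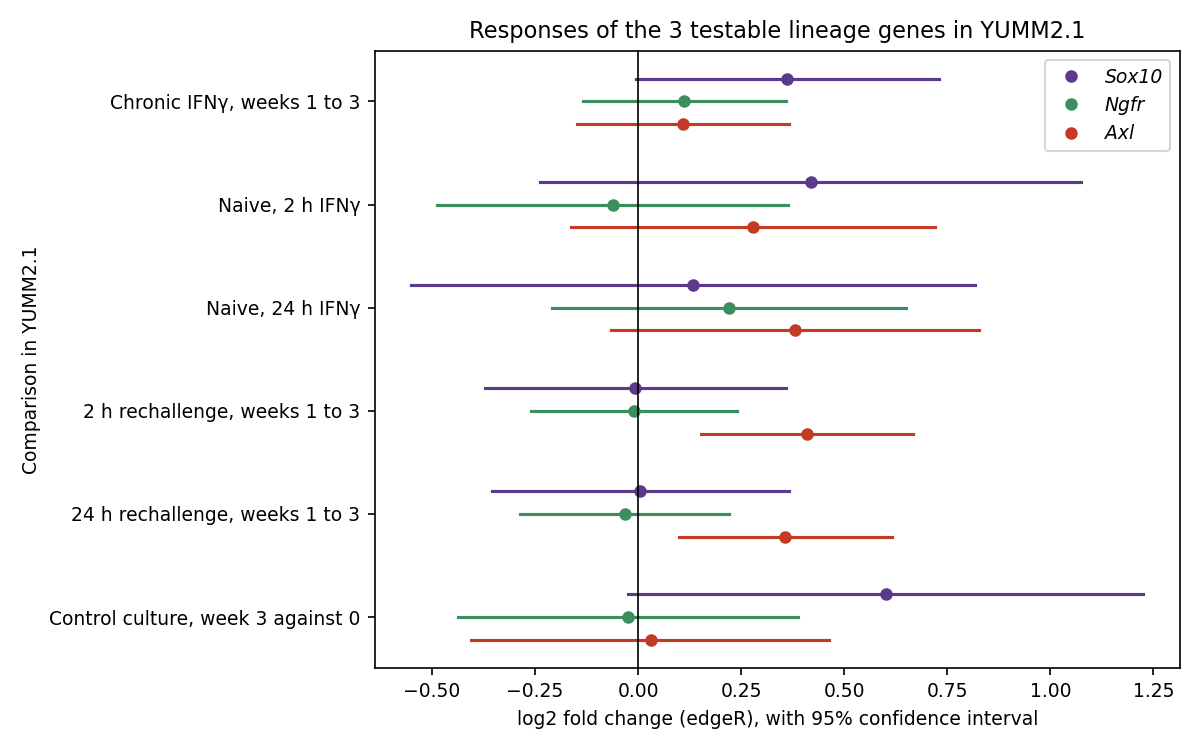
log2 fold changes (points) with 95% confidence intervals (lines) of Sox10, Ngfr and Axl for 6 comparisons in YUMM2.1. The intervals of Axl at 2 h (0.153 to 0.666) and 24 h of rechallenge (0.10 to 0.615) lie above 0, and the other 16 intervals include 0.

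Axl was the only member that could be tested in CT26. Averaged over weeks 1 to 3, its log2 fold change under chronic IFNγ was 0.41 (interval 0.019 to 0.798, unadjusted p = 0.0402, edgeR adjusted p = 0.199), with 8 of 9 chronic samples above the mean of their controls, where 8.14% of the 8516 genes tested passed (0 of 1 member by edgeR and DESeq2). Without the chronic sample of 161 CPM it was 0.25. Controls stood at 46.7, 64.0 and 54.9 CPM at week 1, at 91.4, 73.5 and 53.1 CPM at week 2, and at 61.6, 74.1 and 75.1 CPM at week 3. The chronic samples stood at 79.5, 58.6 and 87.6 CPM, at 60.6, 80.7 and 102 CPM, and at 84.1, 161 and 72.9 CPM, and overlapped the controls at each week. The difference between the responses of YUMM2.1 and CT26 was -0.33 (interval -0.794 to 0.144, adjusted p = 0.878), and this test, in which 0.184% of all genes passed, has no meaning for Sox10 and Ngfr, which CT26 does not express.

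After 2 h of rechallenge, Axl in CT26 changed by 0.47 (interval 0.094 to 0.837, edgeR adjusted p = 0.281, 8 of 9 samples above the mean without rechallenge), where 0.986% of all genes passed, and after 24 h by 0.36 (interval -0.019 to 0.731, adjusted p = 0.658), where 1.34% passed. The value at 24 h was 0.17 without replicate 3 of the 24 h samples at week 3. The estimates at 2 h were 0.41 in YUMM2.1 and 0.47 in CT26, and their difference was not tested. In naive CT26 cells Axl stood at 70.1, 124 and 107 CPM before IFNγ, at 72.0, 103 and 89.3 CPM after 2 h and at 52.2, 55.8 and 92.2 CPM after 24 h, with the groups overlapping.

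**Figure D5:**
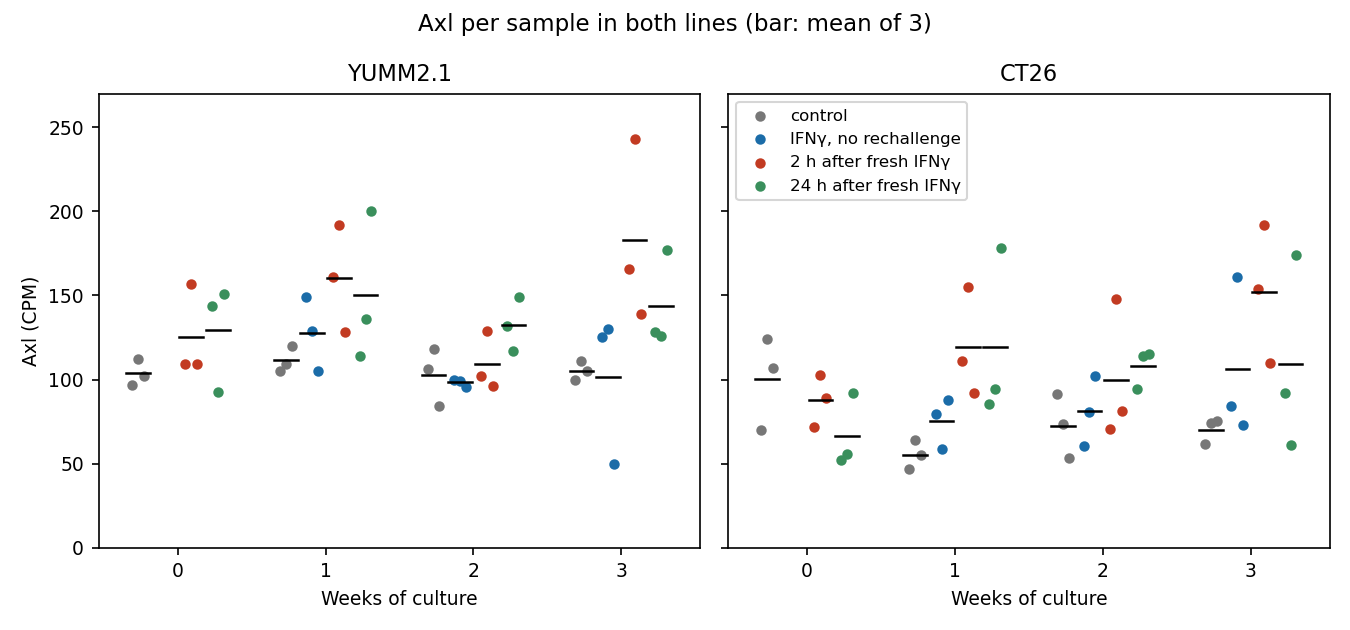
Axl in CPM (vertical axis, from 0) by weeks of culture in YUMM2.1 (left) and CT26 (right); points are samples, bars are means of 3, and colours give controls, chronic IFNγ without rechallenge, and 2 h or 24 h after fresh IFNγ (at week 0, the first exposure). In YUMM2.1 at week 3, the 3 samples at 2 h (139 to 243 CPM) lie above the 3 without rechallenge (49.8 to 130 CPM).

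Time in culture was compared in the controls. At weeks 1, 2 and 3 against week 0, 0 of 3 members passed in each comparison (edgeR, 0 at an unadjusted p under 0.05 and 0 by DESeq2 in each), where 0.073%, 0.0209% and 0.521% of all genes did. Sox10 stood at 17.1, 18.0 and 21.1 CPM at week 0 and at 25.6, 29.5 and 30 CPM at week 3, without overlap, for a log2 fold change of 0.60 (interval -0.024 to 1.225, edgeR adjusted p = 0.633). In between, its control means were 25.5 ± 2.87 CPM at week 1 and 17.5 ± 7.06 CPM at week 2, so it did not rise steadily. The control libraries of weeks 1 and 3 (medians of 2656891 and 2663541 counts) were deeper than those of weeks 0 and 2 (1613228 and 1195810). Whether depth played a part was not tested. Set against the week 0 control instead of its own, the chronic week 3 group gave 0.81 for Sox10 (unadjusted p = 0.0221, edgeR adjusted p = 0.266), with 0 of 3 members past the threshold by edgeR and by DESeq2 and 1 at an unadjusted p under 0.05, where 2.46% of all genes passed. Without the chronic sample of 47.9 CPM it was 0.30. In the controls, Ngfr and Axl differed from week 0 by -0.03 and 0.03 at week 3, and in the chronic cells by 0.13 and 0.17.

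Under chronic IFNγ averaged over the weeks, 0 of 8 pigment and melanosome genes, 0 of 13 neural crest regulators, 0 of 6 receptor partners and 0 of 8 dedifferentiation genes tested passed in edgeR, with median log2 fold changes of -0.04, 0.18, -0.03 and 0.12 beside 0.01 over all genes. Of the 3 Schwann cell and fibroblast markers tested, S100b fell. It stood at 102 to 103 CPM in the week 1 controls and 57.0 to 83.8 CPM in the chronic samples, at 66.3 to 93.1 and 65.1 to 85.8 CPM at week 2, and at 100 to 105 and 35.1 to 63.5 CPM at week 3, free of overlap at weeks 1 and 3. The control libraries of weeks 1 and 3 (2309928 to 3161276 and 2354083 to 3047691 counts) were all deeper than the chronic ones (484092 to 1965197 and 274719 to 1617485). At week 2 the totals overlapped (994733 to 1270700 against 1093299 to 2140588). Depth and IFNγ thus differed together at weeks 1 and 3, and the part of this difference in depth was not tested. The mean log2 fold change of S100b was -0.43 (SE 0.113, edgeR adjusted p = 0.0207) and -0.84 at week 3 (adjusted p = 0.0213). The mean no longer passed without 1 of 5 single libraries, namely chronic replicate 3 of week 1, control replicate 2 or chronic replicate 1 of week 2, and chronic replicate 1 or 3 of week 3, with adjusted p-values of up to 0.0751, while its log2 fold change stayed between -0.47 and -0.38. The fall at week 3 no longer passed without any 1 of the 3 controls, or without chronic replicate 1 or 3, with adjusted p-values of up to 0.131 and log2 fold changes between -0.98 and -0.74.

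At 2 h of rechallenge, Ets1, a crest transcription factor also induced by growth signals, rose by 0.80 (SE 0.171, edgeR adjusted p = 0.00258). It was 1 of the 13 crest regulators tested, where 2.82% of all genes passed. At 24 h none of the pigment, crest, receptor partner and dedifferentiation genes tested passed in edgeR, where 1.06% of all genes did. In the controls, Gpnmb rose from 62.8 ± 8.75 CPM at week 0 to 140 ± 8.32 CPM at week 3 (log2 fold change 1.15, SE 0.150, edgeR adjusted p = 4.1e-06), while the chronic cells of week 3, at 102 ± 36.2 CPM, were 0.86 above week 0 (adjusted p = 0.000462).

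Genes whose mean level over the 15 YUMM2.1 groups was most like that of each expressed member were listed by Pearson correlation of log2 CPM, as a description in which all points share the libraries and their depth. For Sox10 these were Tnc (0.839), Dmtf1 (0.823) and Klhl2 (0.821). For Ngfr they were Ptbp1 (0.918), Ccnd1 (0.911) and Opa3 (0.882). For Axl they were Ccnl1 (0.912), Slc7a1 (0.905) and Ptpn21 (0.888).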

How the data were processed

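Per the labels and the study's methods, RNA of YUMM2.1 and CT26 cultures was sequenced by a 3′ digital gene expression protocol, quantified with Salmon 0.13.1 against mm10 and imported with tximport. The authors deposited whole-number counts per gene for 90 samples, not normalized and with replicates kept apart. Whether molecular identifiers collapsed duplicate reads is not given in the sources used here, so limits from counts cover counting error only. 0 columns were left unused. The study's methods state that outlier samples of both lines were discarded, which the labels do not identify, and all 90 samples are kept here. Of 53697 gene identifiers, 53668 matched a symbol, and positions are from the GRCm38 annotation.

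Counts were analysed in R 4.3.3 with edgeR 4.0.16 (filterByExpr by group, TMM, quasi-likelihood test, Benjamini-Hochberg adjustment over all genes tested, threshold 0.05). One fit held the 45 samples of a line, and a joint fit of all 90 samples gave the comparisons between lines. DESeq2 1.42.0 was an alternative, besides total-count scaling, no filter, only the groups compared, the replicate number as a block, and leaving out libraries. Genes below the filter were compared between the controls of the lines by a permutation test with 100000 resamples, chosen after the counts were seen. A count of 0 was given the limit of 3 counts. Tested on simulated data with 200 genes changed by a log2 fold of 2, the fit for chronic IFNγ recovered 95.5% of them in YUMM2.1 (9589 genes, 12 false calls) and 95.0% in CT26 (8516 genes, 7 false calls). The estimates of the members in that YUMM2.1 comparison were 0.11 to 0.36. The recovery of changes as small as these was not tested.

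The genes named are the 10 members, up to 4 genes per list with the largest change among those passing in the comparison of chronic IFNγ with controls, interferon genes as a check, and the 3 genes most like each expressed member; others were named after their values were seen. Some genes of the lists and 1 motif are not reported here. The members and lists were chosen with earlier results of these data known. The labels do not say whether replicate numbers pair samples. Deviations from group means of same-numbered samples had a median correlation of 0 in YUMM2.1 and 0.006 in CT26. Single pairs reached 0.372 and 0.382, so the medians do not exclude pairing. Among 90 pairs of replicates, 0 held identical counts.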

Additional observations from a re-analysis of the deposited data

Results flagged for a closer look

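Ngfr, the neurotrophin receptor, differed in sign 2 h after rechallenge between week 2 and week 3 in YUMM2.1. Every one of the 3 samples at week 2 lay below the mean of the unrechallenged cells and every one of the 3 at week 3 lay above it. At week 3 the groups overlapped. The unrechallenged mean there, 70.4 ± 17.4 CPM, was lowered by the shallow library, which held 18 counts of Ngfr (52.7 CPM), so the flag rests in part on that library. The log2 fold changes were -0.395 and 0.146, neither passed in edgeR, and the difference between the weeks was not tested.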

How the results depend on the processing

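The count of members past the threshold in 20 comparisons stayed within 1.5 times of its value in 115 of 120 values under other settings and in 226 of 228 values with 1 library, or 1 replicate number, left out. The exceptions all concern Axl, and the cause was not tested. Within that tolerance, the count between the untreated lines went from 3 to 4 with no filter and without the shallow libraries, with Dct, lower in YUMM2.1, as the added call. The count for 2 h of rechallenge in YUMM2.1 went from 0 to 1 with DESeq2, to 1 with no filter on low counts, and ranged from 0 to 1 when 1 library was left out (1 without replicate 3 of the 2 h samples at week 1 or at week 3). With no filter it also went from 0 to 1 for 24 h of rechallenge in YUMM2.1, for chronic IFNγ in CT26 and for 2 h of rechallenge in CT26. In the replicate block fit, which pairs samples only by number, the count was 3 between the untreated lines and 0 in every other comparison, as without it, and the block changed no call of a member. Of the 3 possible numbers, the own number was the best match for 13 of 45 YUMM2.1 samples and 21 of 45 CT26 samples.

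For 52 single-gene results chosen for this check, 0 of 294 values under other settings and 0 of 414 with a library left out changed direction. Other estimates reported above were not in this set. Among them, the difference of Sox10 between the responses at week 3 and week 1 went from 0.022 to -0.003 with no filter. The adjusted p of Axl at 2 h ranged from 0.00318 to 0.14 over the alternatives that kept all samples or left out shallow libraries, and from 0.0294 to 0.248 when 1 library was left out. Without the libraries under 25% of the median total, the log2 fold change of S100b was -0.39 and no longer passed (adjusted p = 0.0548). Mitf, Dct and Sox9 had a few counts per sample, and with no filter none passed within YUMM2.1.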
